A study of Mus musculus with 6 samples.

Results

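Interferon-stimulated antiviral genes are the genes a cell switches on after it detects interferon, and their products block the entry, copying or release of viruses. The set described here was chosen by name, as a list of well-known antiviral genes looked up among the gene symbols of the study's comparison. The list holds 38 names, of which Ddx58 and Rigi are names of the same gene, and all 37 genes were found among the 16701 listed. They were measured by sequencing polyadenylated RNA of luminal epithelial cells from the mouse mammary gland, the cells that line its ducts and make milk. The libraries were 3 from control mice (genotype WT) and 3 from Ocln knockout mice (Ocln-/-), all at 7 weeks of age. Ocln encodes occludin, a tight junction protein. The sources used here do not give how the knockout allele was made, the strain, the way the luminal cells were isolated, or whether different libraries came from different mice. The p-values thus rest on the scatter of these 6 libraries alone, some of which may be technical.

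Type I and type III interferons bind receptors that activate the kinases Jak1 and Tyk2, which phosphorylate STAT proteins. Stat2 and Irf9 are parts of the resulting transcription factor, which binds a short DNA element, the interferon-stimulated response element, near the start of antiviral genes. Epithelial cells respond to both interferon types and keep a low level of many of these genes without infection.

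The element is visible in the promoters of 17 of the 37 genes described here. A window running from 250 bases before the annotated start site to 50 bases after it was available in RefSeq (GRCm38.p6) for 28 of the 37 genes. The letters GAAANNGAAA, searched on both strands with overlapping matches counted, were present in 17 of these 28 genes (60.7 percent), against 3.79 percent of the 11356 listed genes with a window and 3.44 percent of all 32851 windows. Of the 17 genes, 15 had a match before the start site and 10 had several matches. The following stretches of 60 bases show the arrangement in genes of different roles, with the matching letters in capitals and everything else in lower case. They read 5′ to 3′ on the strand of the gene, so a match on the other strand appears as TTTC repeats.
Isg15: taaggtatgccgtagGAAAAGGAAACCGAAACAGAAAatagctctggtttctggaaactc
Ifit1: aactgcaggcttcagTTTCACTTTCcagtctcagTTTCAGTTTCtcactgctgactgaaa
Ifit3: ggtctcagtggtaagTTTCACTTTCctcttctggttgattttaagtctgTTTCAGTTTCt
Ifit3b: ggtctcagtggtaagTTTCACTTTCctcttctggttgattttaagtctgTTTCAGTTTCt
Oas1a: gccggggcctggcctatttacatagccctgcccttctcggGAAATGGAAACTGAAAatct
Oas1g: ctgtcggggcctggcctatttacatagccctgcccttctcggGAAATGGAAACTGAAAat
Ddx60: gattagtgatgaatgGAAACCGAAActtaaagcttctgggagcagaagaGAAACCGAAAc
Gbp2: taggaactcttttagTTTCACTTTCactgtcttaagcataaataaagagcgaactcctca
Phf11d: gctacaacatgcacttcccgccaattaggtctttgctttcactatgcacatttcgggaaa

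The Isg15 stretch (chr4:156200852-156200911, minus strand) holds 3 overlapping matches in a row. The stretches of Ifit3 (chr19:34583358-34583417, plus strand) and Ifit3b (chr19:34607754-34607813, plus strand) were identical in 60 of 60 bases. Those of Oas1a (chr5:120907526-120907585, minus strand) and Oas1g (chr5:120887614-120887673, minus strand), when aligned, were identical in 57 of 58 bases. Ifit1 (chr19:34640770-34640829) has a pair of matches on the other strand, Ddx60 (chr8:61928019-61928078) a pair on its own strand and Gbp2 (chr3:142620589-142620648) a single match. The Phf11d stretch (chr14:59365491-59365550, minus strand) is shown because Phf11d had the smallest p-value of the set, and it holds no match to these letters. The plot of element positions gives the same for all 17 genes.

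**Figure D1:**
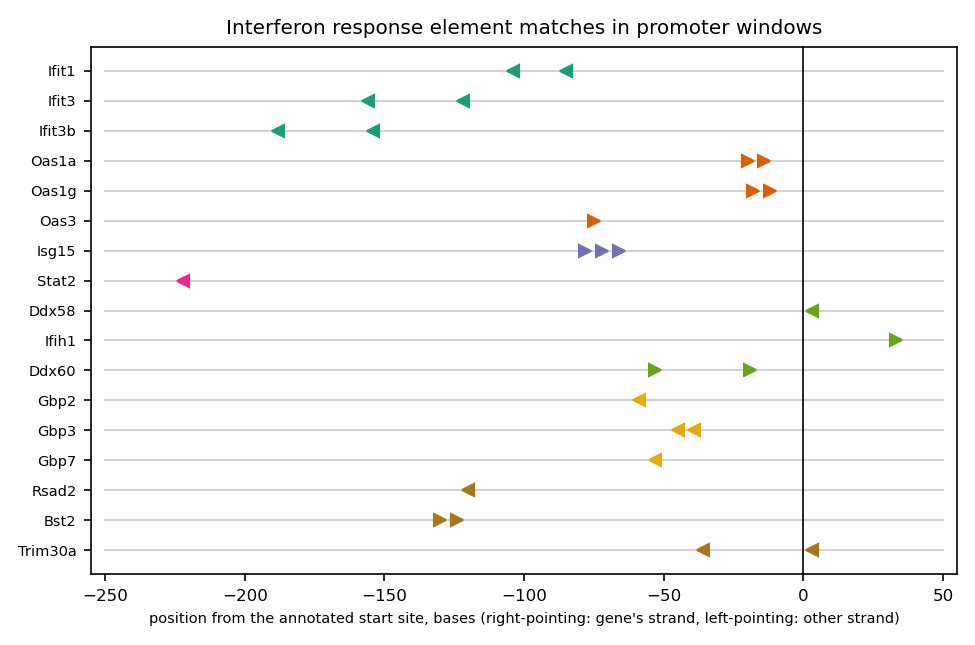
Start of each match to the interferon response element in promoter windows of the 17 genes that hold one, in bases from the annotated start site (position 1 is the first transcribed base), with the direction of the marker giving the strand and the colour the gene's role. Isg15 shows 3 matches from -78 to -66, Ddx58 and Ifih1 have their match after the start site, and Trim30a has 1 match in each of its annotated windows.

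No antiviral gene passed the test between genotypes. In the authors' deposited table, 0 of the 37 genes had a DESeq2 adjusted p under 0.05, where 1.08 percent of all listed genes did (0.808 percent higher and 0.275 percent lower in the knockout). Without adjustment, 5 of the 37 were higher at a p under 0.05, against a background of 5.23 percent of all genes, and 1 was lower, against 3.83 percent. The 6 are Ddx58, Ifi44, Oasl1, Parp14 and Phf11d on the higher side and Ifi35 on the lower. None carried the authors' own call of Up or Down, which 2.79 percent of all genes did. The median log2 fold change, knockout over control, was 0.12 over the antiviral genes and -0.01 over all listed genes, and 26 of the 37 values were positive (70.3 percent), against 48.8 percent of all genes. The values ran from -0.50 for Ifit3b to 0.75 for Oasl1. In bulk RNA, fewer cells of a type and less RNA per cell cannot be told apart.

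The precision allows most large changes to be bounded. For 28 of the 37 antiviral genes (75.7 percent) the 95 percent interval, taken as 1.96 standard errors (SE) on either side, lay wholly inside a change of 2-fold up or down, compared with 69.0 percent of all listed genes. For 8 of them, Ifit1, Ifit2, Irf9, Stat2, Ifih1, Zbp1, Gbp2 and Xaf1, it lay inside 1.5-fold (21.6 percent, against 41.0 percent of all genes). The intervals of 9 genes reached 2-fold, namely Ifit3, Ifit3b, Oas1a, Oas3, Oasl1, Mx1, Ifi44, Phf11d and Ifi27l2a. The plot of fold changes by role shows these intervals.

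**Figure D2:**
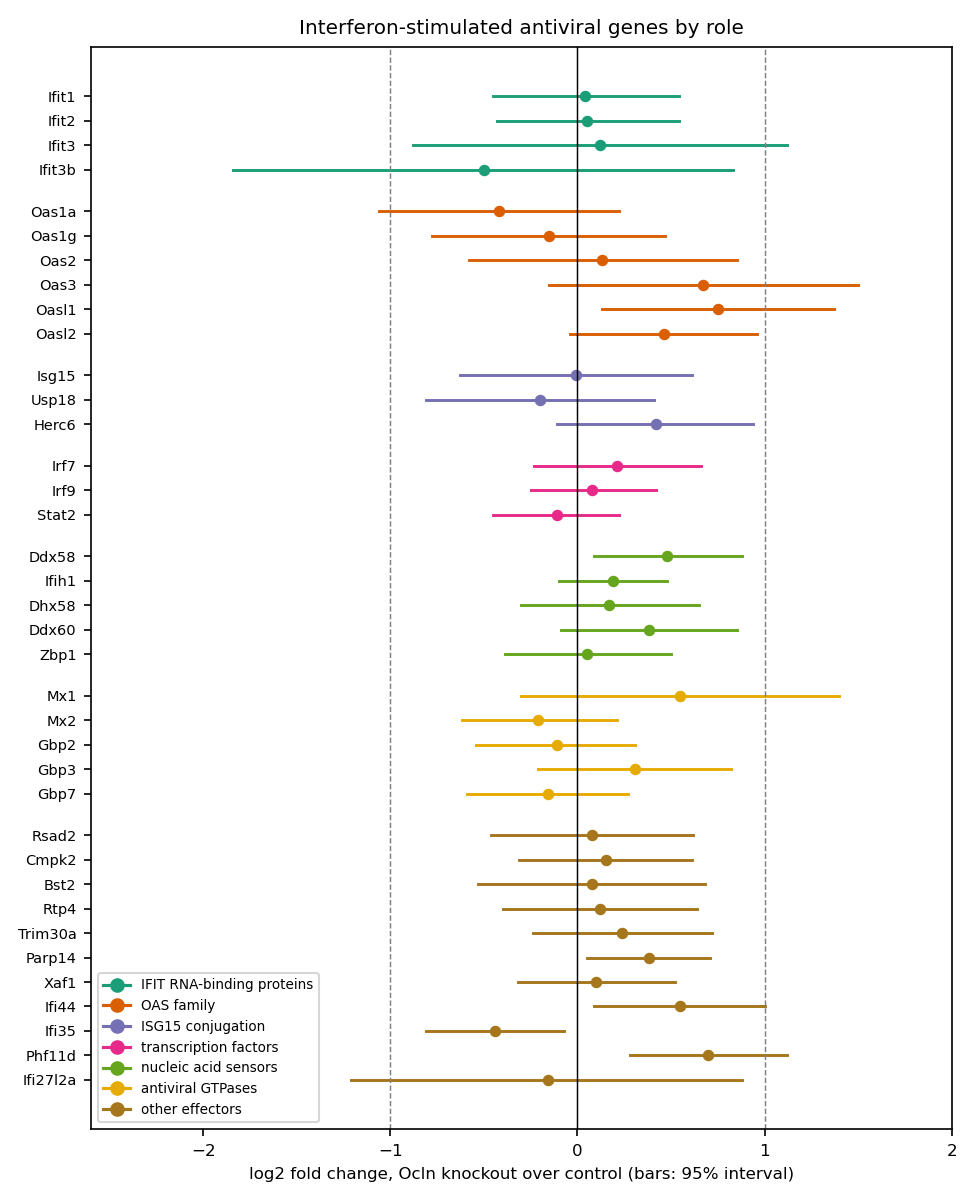
Log2 fold change, knockout over control, for each of the 37 genes, grouped and coloured by role. Points are the values of the authors' deposited table, bars are 95 percent intervals, and dashed lines mark a change of 2-fold. The intervals of 31 genes hold 0, and Phf11d, Oasl1, Ifi44, Ddx58 and Parp14 lie wholly above it and Ifi35 wholly below it.

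The genes differed widely in level. Mean levels over the 6 libraries spanned 14.5 to 2800 normalized counts in the authors' deposited table, with a median of 331 against 399 over all listed genes, and 34 of the 37 were at 50 or more. Genes are ordered here per kilobase of the longest annotated transcript. On that scale Bst2, a membrane tether of budding viruses, stood highest at 946 normalized counts per kilobase, followed by Ddx58 at 723, Ifi35 at 637 and Irf9 at 573. The lowest per kilobase were Ifit3b at 7.27, Oas3 at 11.1, Ifit3 at 12.3 and Mx1 at 12.4. These are means over both genotypes, and values per library were not used here.

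The transcription factors that turn the set on had values close to no change. Irf9, the DNA-binding part of the interferon-activated complex, had a log2 fold change of 0.08 ± 0.17 (SE) in the authors' deposited table, or 106 percent of the control level with an interval of 84.0 to 134 percent. Its partner Stat2 stood at -0.11 ± 0.17 in the authors' deposited table, an interval of 73.4 to 116 percent of control. Irf7, the factor that amplifies interferon production, had 0.21 ± 0.23 in the same table, and its interval reached 158 percent. For Irf9 and Stat2, a change of 1.5-fold lies outside the interval.

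The 5 sensors of foreign nucleic acid in the set all had positive values. Ddx58, which encodes the RNA sensor RIG-I, had a log2 fold change of 0.48 ± 0.20 (SE) in the authors' deposited table, 140 percent of control with an interval of 106 to 184 percent, and did not pass (DESeq2 adjusted p = 0.376, unadjusted p = 0.0168). Ifih1, the gene of MDA5, which senses long double-stranded RNA, stood at 0.19 ± 0.15 in the authors' deposited table. Dhx58, encoding the related helicase LGP2, had 0.17 ± 0.24 there. The helicase gene Ddx60 had 0.38 ± 0.24 in the authors' deposited table, and Zbp1, a sensor of left-handed nucleic acid that can trigger necroptosis, 0.05 ± 0.23. All 5 values were positive, with a median of 0.19, and 1 of the 5 had an unadjusted p under 0.05. Sensors outside the set were not all positive. Cgas had -0.03 ± 0.36, Tlr7 -0.20 ± 0.55 and Tlr3 0.06 ± 0.17 in the authors' deposited table, and Tlr9 is given below.

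The OAS family, enzymes and relatives that respond to double-stranded RNA, held both the highest value of the set and 2 negative ones, those of Oas1a and Oas1g, which share much of their sequence. Oasl1 lacks the enzyme's activity and restrains the translation of Irf7. It had a log2 fold change of 0.75 ± 0.32 (SE) in the authors' deposited table, 168 percent of control, with an interval of 110 to 259 percent (DESeq2 adjusted p = 0.381, unadjusted p = 0.0175). Its neighbour Oasl2 stood at 0.46 ± 0.26 in the authors' deposited table. The pair lies within 41.0 kb on chromosome 5. Oas3 (0.67 ± 0.42) and Oas2 (0.13 ± 0.37) had positive values in that table, and Oas1a (-0.42 ± 0.33) and Oas1g (-0.15 ± 0.32) negative ones. These 4 genes share a cluster of 177 kb on chromosome 5 (chr5:120730333-120907521). The interval of Oas3 ran from 89.9 to 282 percent of control. Oas1b and Oas1c, relatives outside the set, had 0.25 ± 0.26 and -0.42 ± 0.29 in the authors' deposited table.

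The IFIT proteins bind viral RNA that lacks the cell's own cap marks. Ifit1 had a log2 fold change of 0.04 ± 0.25 (SE) and Ifit2 one of 0.05 ± 0.25 in the authors' deposited table, with intervals of 73.1 to 145 percent and 74.1 to 145 percent of control. The sister genes Ifit3 (0.12 ± 0.51) and Ifit3b (-0.50 ± 0.68) were listed at only 21.4 and 14.5 normalized counts in the authors' deposited table. The intervals of both reach 2-fold. All 4 genes lie in a cluster of 99.3 kb on chromosome 19 (chr19:34550694-34650009).

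Isg15 encodes a ubiquitin-like protein that is attached to other proteins. In the authors' deposited table its log2 fold change was -0.01 ± 0.32 (SE), which puts it at 99.3 percent of control with an interval of 64.7 to 153 percent. Usp18, the protease that removes ISG15 and also restrains the type I interferon receptor, stood at -0.20 ± 0.31 in the authors' deposited table. Herc6, the main ligase for ISG15 in mice, had 0.42 ± 0.27 there, with an interval of 92.9 to 192 percent. None of the 3 had an unadjusted p under 0.05.

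The antiviral GTPases were mixed in sign. Mx1, the nuclear inhibitor of influenza viruses, which is defective in many laboratory strains, had a log2 fold change of 0.55 ± 0.44 (SE) at a mean level of 41.8 normalized counts in the authors' deposited table. Its cytoplasmic relative Mx2 stood at -0.21 ± 0.21 there. Of the guanylate-binding proteins, which attack the membranes around intracellular pathogens, Gbp3 had 0.31 ± 0.26, Gbp2 -0.11 ± 0.22 and Gbp7 -0.16 ± 0.22 in the authors' deposited table. None of the 5 had an unadjusted p under 0.05, and their median was -0.11. Across the neighbouring genes Gbp2, Gbp3 and Gbp7, within 108 kb of chromosome 3, the values therefore ran from -0.16 to 0.31.

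Phf11d came nearest to the threshold. The Phf11d protein belongs to a family with a PHD finger, a fold that often reads histone tails, and its gene responds to interferon. In the authors' deposited table it had a log2 fold change of 0.70 ± 0.22 (SE), 163 percent of control with an interval of 121 to 218 percent (DESeq2 adjusted p = 0.0794, unadjusted p = 0.00117), on a mean of 1211 normalized counts. It is encoded at chr14:59347407-59365470 (GRCm38, minus strand), and 12.2 percent of the 50-base windows of its longest transcript occur in transcripts of other genes, with 9.06 percent in Phf11c. Phf11c had a log2 fold change of -0.01 ± 0.33 and Phf11b, named after its value was seen, one of 0.36 ± 0.46 in the authors' deposited table. Per kilobase their levels were 19.6 and 35.9 normalized counts, against 407 for Phf11d.

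Among the remaining effectors, 3 more genes had an unadjusted p under 0.05. Ifi44, an interferon-induced cytoplasmic protein, had a log2 fold change of 0.55 ± 0.23 (SE) in the authors' deposited table (DESeq2 adjusted p = 0.393, unadjusted p = 0.0192). Parp14, an ADP-ribosyltransferase, stood at 0.38 ± 0.17 in the authors' deposited table (adjusted p = 0.447, unadjusted p = 0.0259). Ifi35, a leucine zipper protein that modulates interferon and inflammatory signalling, was the lower one, at -0.44 ± 0.19 or 73.5 percent of control in the authors' deposited table, with an interval of -0.81 to -0.07 on the log2 scale (adjusted p = 0.39, unadjusted p = 0.0185).

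The other effectors had values near 0. Rsad2, which encodes viperin, an enzyme that makes a chain-terminating nucleotide, had 0.08 ± 0.28 (SE) in the authors' deposited table. Cmpk2, the mitochondrial nucleotide kinase gene beside it, had 0.15 ± 0.23 there. Bst2 stood at 0.08 ± 0.31, Rtp4, an interferon-induced chaperone of membrane receptors, at 0.12 ± 0.27, and Trim30a, a brake on NF-kB signalling, at 0.24 ± 0.24 in the authors' deposited table. Xaf1, a promoter of apoptosis, had 0.10 ± 0.21 in that table, and Ifi27l2a, a small hydrophobic protein, -0.16 ± 0.53. The interval of Ifi27l2a ran from 43.3 to 184 percent of control and was the widest on the log2 scale among genes outside the IFIT family.

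The fold changes of the antiviral genes were less precise than those of genes with a similar level. For each gene, the SE was divided by the median SE of the 200 genes nearest to it in mean level. This ratio was above 1 for 33 of the 37 antiviral genes (89.2 percent), against 50.1 percent of all listed genes, and its median was 1.13. It was highest for Ifi27l2a (1.69), Bst2 (1.68), Rtp4 (1.46), Oasl2 (1.45), Oas1a (1.42) and Usp18 (1.41), and lowest for Ifih1 (0.881) and Mx2 (0.882). Which libraries were high or low was not analysed here. The plot of precision against level shows where each gene falls.

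**Figure D3:**
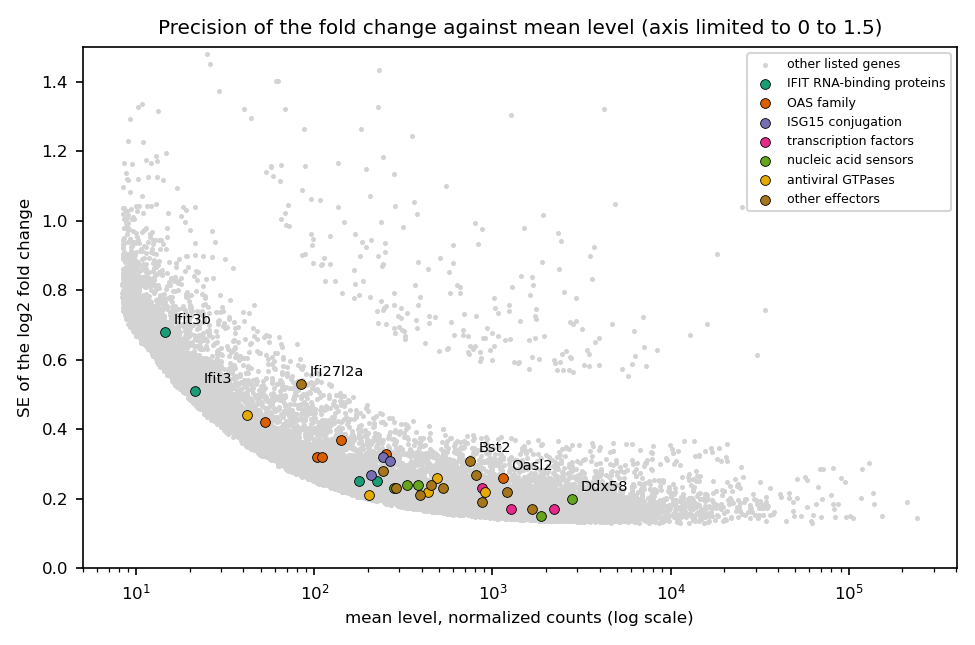
SE of the log2 fold change against the mean level in normalized counts (log axis), with the 37 antiviral genes coloured by role over all listed genes in grey, for SEs up to 1.5. Bst2 and Ifi27l2a stand 1.68 and 1.69 times as high as genes of a similar level, and Ifih1 and Mx2 lie below 1.

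Fold changes were also set beside transcript length. Spearman's rho between the log2 fold change and the length of the longest annotated transcript was 0.48 across the 37 antiviral genes, compared with 0.16 across the 16250 listed genes with a known length, and 0.19 with the mean level. The genes share the same 6 libraries and are not independent points, so these are descriptions. The 18 longer genes, from 3240 bases up, had a median of 0.20 with 16 positive values, and the 19 shorter ones, up to 3123 bases, a median of 0.04 with 10 positive values. Short transcripts of the set include Ifi27l2a at 463 bases, Isg15 at 756, Bst2 at 792 and Ifi35 at 1362, whose values in the authors' deposited table were between -0.44 and 0.08. The 2 highest values of the set also belong to the shorter genes, Oasl1 (0.75, 2181 bases) and Phf11d (0.70, 2973 bases) in that table. After fold changes were centred within 20 bins of transcript length over all listed genes, the median of the antiviral genes was 0.14. Whether length had a part in the values was not tested further.

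**Figure D4:**
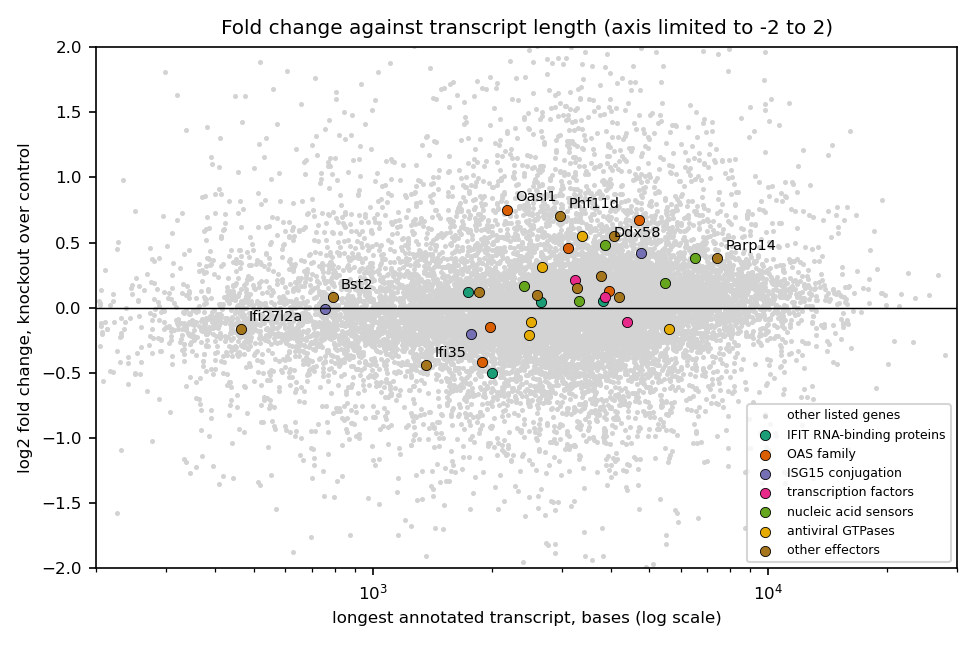
Log2 fold change, knockout over control, against the length of the longest annotated transcript in bases (log axis), for the 37 antiviral genes coloured by role and all other listed genes in grey, for values from -2 to 2. Ifi27l2a, Ifi35 and Bst2 lie among the shortest, with values of -0.16, -0.44 and 0.08, Parp14 is the longest, at 0.38, and the highest values, Oasl1 and Phf11d, lie between them.

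Fold changes were then set beside the response element. The 17 antiviral genes whose window held GAAANNGAAA had a median log2 fold change of 0.08, with 1 of them, Ddx58, higher at an unadjusted p under 0.05. The 11 genes without these letters had a median of 0.21, with 3 higher and 1 lower. These are Cmpk2, Herc6, Ifi35, Ifi44, Ifit2, Irf7, Irf9, Oasl1, Oasl2, Phf11d and Xaf1. Among the other listed genes with a window, 413 held the element, with a median of -0.03 and 6.3 percent higher and 4.84 percent lower at an unadjusted p under 0.05. The 10915 others without it had a median of -0.01, with 5.42 percent higher and 4.27 percent lower. The letters TTCNNNGAA, the element bound by STAT dimers and best known for the response to interferon gamma, were found in 5 of the 28 antiviral windows (17.9 percent) and in 8.39 percent of listed genes. A match is a run of letters and not a measured binding site, and the lack of one says only that these letters are not in this window.

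The upstream pathway was read from lists of its other genes. Over all listed genes, for these and the following lists, 1.08 percent passed. At an unadjusted p under 0.05, 5.23 percent of all listed genes were higher and 3.83 percent lower. Of 9 interferon receptor and kinase genes, 0 passed the DESeq2 test and 2 were higher at an unadjusted p under 0.05. These were Ifngr1, a chain of the interferon gamma receptor (log2 fold change 0.55 ± 0.21 SE), and Ifnar1, a chain of the type I receptor (0.32 ± 0.15), in the authors' deposited table. The kinase genes Jak1 and Jak2 had -0.04 ± 0.16 and -0.07 ± 0.15 in the authors' deposited table. Ifnlr1, the receptor chain of the type III interferons that act on epithelia, stood at 0.18 ± 0.23 there. None of the 10 interferon genes looked up, among them Ifnb1, Ifnl3 and Ifng, was among the listed genes, so they were not analysed here.

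Of 9 STAT and IRF factor genes outside the set, 0 passed and 2 were higher at an unadjusted p under 0.05. They were Irf5 (1.22 ± 0.48 SE, mean level 87.2) and Irf8 (0.93 ± 0.44, mean level 222) in the authors' deposited table, factors best known from immune cells. Stat3, which drives involution of the mammary gland, had 0.22 ± 0.14 in the same table. Among 14 sensing adaptors and kinases, 0 passed, and the unadjusted p was under 0.05 for 1 higher and 1 lower gene. The higher was Tlr9, a DNA receptor, at 2.21 ± 0.94 on a mean level of only 12.4 normalized counts, and the lower was Mavs, the adaptor through which RIG-I and MDA5 signal, at -0.40 ± 0.20 in the authors' deposited table. The ubiquitin ligase genes Trim25 and Traf6 had 0.04 ± 0.17 and 0.34 ± 0.18 there. Of 11 listed genes that restrain interferon signalling or the nucleic acids that start it, 0 passed and 1, the dNTP hydrolase gene Samhd1, was higher at an unadjusted p under 0.05 (0.43 ± 0.15, DESeq2 adjusted p = 0.19). Socs3, a feedback inhibitor of Jak kinases, stood at -0.34 ± 0.32 in the authors' deposited table.

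Other interferon-induced genes numbered 43. None passed (0 of 43), against 1.08 percent of all listed genes, and the median was 0.05. The unadjusted p was under 0.05 for 4 higher genes and 1 lower gene, against 5.23 and 3.83 percent of all listed genes. The 4 higher were Epsti1 (1.30 ± 0.46 SE), Helz2 (0.47 ± 0.20), Plac8 (0.75 ± 0.32) and Ms4a4c (1.43 ± 0.72) in the authors' deposited table. The lower was Ube2l6, the conjugating enzyme for ISG15, at -0.47 ± 0.24, named after its value in the authors' deposited table was seen. Apobec3, a restriction factor of retroviruses, had 0.21 ± 0.33 and Shisa5 0.10 ± 0.19 in the authors' deposited table. Among 25 targets best known for interferon gamma, 0 passed, the unadjusted p was under 0.05 for 1 higher and 3 lower genes, and the median was 0.11. The higher was the chemokine gene Cxcl9 (1.63 ± 0.74), and the lower were the immunoproteasome genes Psmb9 (-0.66 ± 0.23) and Psmb8 (-0.41 ± 0.17) and the guanylate-binding protein gene Gbp10 (49.9 percent of control), in the authors' deposited table. The antigen presentation genes Tapbp and Cd74 had -0.13 ± 0.17 and 0.81 ± 0.66 there. Of other relatives of the set, none of 1 listed TRIM30 gene (Trim30d, 0.20 ± 0.25), 4 HERC and DDX60 relatives (Herc2 -0.09 ± 0.21, Herc1 0.09 ± 0.19) and 9 PARP genes (Parp1 0.04 ± 0.20, Parp4 0.10 ± 0.19) passed or had an unadjusted p under 0.05 in the authors' deposited table. Among these pathway and interferon-induced genes outside the set, Epsti1, Ms4a4c, Irf5, Tlr9 and Cxcl9 carry the authors' call of Up in the authors' deposited table, and none carries Down. Of all listed genes, 2.79 percent carry a call of Up or Down. The plot by gene list sets these groups beside each other.

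**Figure D5:**
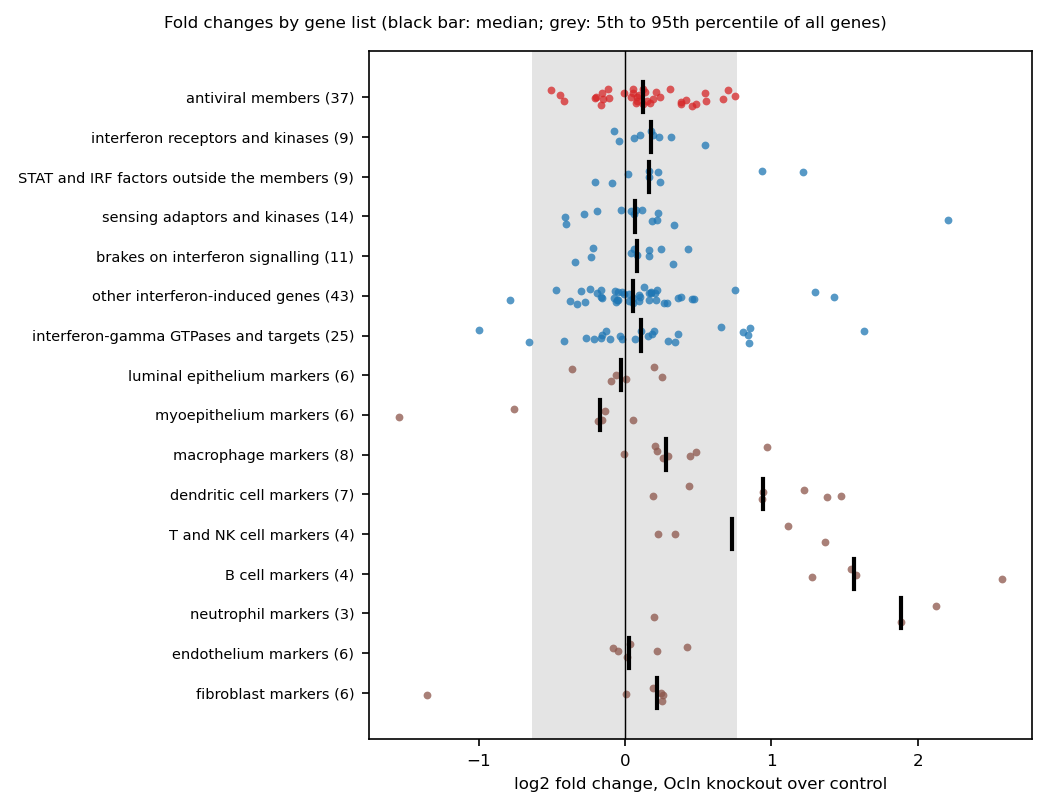
Log2 fold change, knockout over control, of every listed gene of each list (points, number in brackets), with the median as a black bar and the 5th to 95th percentile of all listed genes shaded. The 37 antiviral genes lie between -0.50 and 0.75, and markers of dendritic cells, B cells and neutrophils lie mostly to the right of the shaded range.

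Markers of the cells in the preparation were read from the same comparison. The 6 luminal markers stood at 24650 to 84084 normalized counts, with Krt18 at -0.10 ± 0.15 (SE) and Krt8 at -0.06 ± 0.14 on the log2 fold change scale of the authors' deposited table. Of the 6, 3 were positive, with a median of -0.03, and 0 passed. Krt19, at -0.36 ± 0.18, was the 1 luminal marker with an unadjusted p under 0.05 (DESeq2 unadjusted p = 0.0374). Of 6 myoepithelial markers, at 52.4 to 665 normalized counts, 5 were negative, with a median of -0.17, and 1 passed. That was Oxtr, which fell by 1.55 ± 0.38 (DESeq2 adjusted p = 0.00733), while Acta2 stood at -0.16 ± 0.28. Of 6 fibroblast markers 5 were positive, with a median of 0.22. Dcn, the 1 that passed, fell by 1.36 ± 0.35 (DESeq2 adjusted p = 0.0134), and Col3a1 stood at 0.25 ± 0.34. None of 6 endothelial markers passed (Vwf 0.22 ± 0.20, Pecam1 0.04 ± 0.21). Ocln, the targeted gene, had a log2 fold change of -1.15 ± 0.16 (DESeq2 adjusted p = 4.36e-09). Interferon-stimulated genes are also expressed by immune cells, whose markers had mostly positive values at low levels. Of 8 macrophage markers 7 were positive, with a median of 0.28 and a summed mean level of 1827 normalized counts, and 0 passed (Lyz2 0.97 ± 0.29, Cd68 0.49 ± 0.26). All 7 listed dendritic cell markers were positive (median 0.94, summed level 324), and Zbtb46, a transcription factor of conventional dendritic cells, rose by 1.48 ± 0.43 (DESeq2 adjusted p = 0.0488) in the authors' deposited table, while Itgax had 0.44 ± 0.42. Siglech, a marker of plasmacytoid dendritic cells, stood at 0.94 ± 0.62 on a mean level of 29.5, named after its value was seen. Ccr9, the marker of this list with the lowest value, stood at 0.19 ± 0.82 on a mean level of 9.35. All 4 listed B cell markers (median 1.56, summed level 319) and all 4 listed T and NK cell markers (median 0.73, summed level 259) were positive, with 0 passing. Ighm and Ighd had 1.58 ± 1.15 and 2.58 ± 1.32, and Trbc2 and Ccl5 0.22 ± 0.47 and 1.12 ± 0.65. Of 3 listed neutrophil markers S100a8 rose (2.12 ± 0.53, DESeq2 adjusted p = 0.00935) and S100a9 stood at 1.89 ± 0.57 (adjusted p = 0.0713). Csf3r, also on this list, stood at 0.20 ± 0.53 on a mean level of 20.8, named after its value was seen. Markers that the table does not list, such as Cd3e and Ly6g, were not analysed here. The summed mean level of the 37 antiviral genes was 22353 normalized counts. These sums cover different numbers of chosen genes, so they do not measure the share of any cell type. Levels within each genotype were not used here. The part of these immune cells in the values of the antiviral genes was not tested.

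Some of the genes share sequence, which bears on how reads were divided between them. In the longest annotated transcript, 57.6 percent of 50-base windows of Oas1a occur in Oas1g and 54.1 percent of those of Oas1g in Oas1a, and 51.2 percent of Ifit3 windows occur in Ifit3b and 44.5 percent of Ifit3b windows in Ifit3. The sources used here do not give how reads that fit both copies were counted, so the separate values of these 4 genes are uncertain. Another 4 genes shared 10 to 40 percent of windows, Herc6, Gbp7 and Rtp4 mostly with overlapping predicted genes and Phf11d with Phf11c, and 17 shared none. Exons of Irf7, Dhx58, Oasl1, Usp18, Ifi35 and Gbp2 overlap an annotated gene on the other strand, and without a stated strand setting reads from the partners cannot be told apart. Exons of Irf9 overlap Rnf31, and those of Parp14 overlap Gm49730, on the same strand, where no strand setting separates reads. Of the windows of Irf9 and Parp14, 0.34 and 0.841 percent occur in transcripts of other genes. No antiviral gene lies on chromosome 13, which carries Ocln, the count being 0 of 37.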

How the data were processed

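The data were 6 RNA-seq libraries, 3 per genotype, used through the authors' deposited table of a single comparison. The submitters' processing notes name DESeq2 and mm10 (GRCm38), and the aligner, counter and annotation were not given in the sources used here. Direction, knockout over control, comes from the name of the table. The deposited columns are, per the file headers, a mean level (a signal in normalized counts), the log2 fold change and its SE, the Wald score, the p-value, the adjusted p-value and another kind of value, the authors' call. No values per library were used, so the depth per library is unknown and no new test per gene was run. The lowest mean level listed was 8.35. Antiviral genes and lists were chosen with earlier results of these data known. Every antiviral gene is named. Of other lists, the rule names up to 4 genes with an unadjusted p under 0.05 and the 2 with the highest mean level. Of marker lists, it names those with an adjusted p under 0.05 and the 2 highest. Cgas, Tlr3, Tlr7, Ifnlr1, Krt19, Ccr9, Csf3r, Phf11b, Ube2l6 and Siglech are named outside this rule. A gene that this rule names is not reported here.

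Python 3.11.15 with pandas 2.3.3, numpy 2.4.6 and scipy 1.17.1 was used. Lengths, positions and shared windows of 50 bases came from GENCODE M21 (GRCm38), whose build matches. The adjustment and centring functions were tested on simulated data. Alternatives were a stricter adjusted p, a mean level of at least 50, the authors' calls, scores shrunk for their inflation (factor 1.18), scores centred in 20 bins of transcript length, near-identical copies left out and a weighted mean.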

Additional observations from a re-analysis of the deposited data

How the results depend on the processing

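The count of antiviral genes past an adjusted p of 0.05 was 0 in every alternative. These include a mean level of at least 50 and length-centred scores. With an adjusted p under 0.01 or scores shrunk for inflation the count could not rise, so a 0 there was fixed in advance. The authors' calls, also 0, follow another rule, as Irf5 was called Up at a DESeq2 adjusted p of 0.297. At an unadjusted p under 0.01, 1 gene was higher, Phf11d, and 0 were lower. At an unadjusted p under 0.05, scores shrunk for inflation gave 5 higher and 1 lower, and length-centred scores 4 higher, without Parp14, and 1 lower. Their median log2 fold change ran from 0.108 with a mean level of at least 50 to 0.14 with length-centred values. A weighted mean in place of the median was 0.139, and all 5 alternatives were positive. Centring on all genes (0.128) only subtracts the all-gene median of -0.01, so its sign was fixed in advance. For the 6 genes with an unadjusted p under 0.05, the adjusted p under 3 alternatives each ran from 0.0688 to 0.695, so none of the 18 values passed. Scores shrunk for inflation can only raise an adjusted p, so their part in this was fixed in advance. No paired analysis was possible because the deposited table holds no values per library, and for the same reason no library could be left out in turn. Depth limits Ifit3, Ifit3b and Mx1 most, whose mean levels were under 50.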
